A study of Mus musculus with 12 samples.

Results

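The genes described here are 10 ligands, receptors and intracellular mediators of the transforming growth factor beta (TGF-beta) and activin pathway, out of 23479 genes in the deposited table. They are the ligand genes Tgfb1 and Inhba, the activator gene Thbs1, the receptor genes Acvrl1, Tgfbr1 and Tgfbr2, the co-receptor genes Tgfbr3 and Eng, and the mediator genes Smad3 and Smad7. They were picked by name for their place in the pathway, with earlier results of these data known, and which values bore on the choice is not recorded. Their differences and adjusted p-values are therefore given as a description taken from a fit over all genes, and support no claim about the list.

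The RNA came from myeloid-derived suppressor cells, a mixed set of immature myeloid cells that accumulate during tumour growth and hold back T cell responses. A monocytic population (M-MDSC) and a polymorphonuclear one that resembles neutrophils (PMN-MDSC) were sorted from the spleen. The host was the C57BL/6 mouse, and B16 is a transplanted mouse melanoma line that grew in all of them. In the lymphodepleted groups (LD), mice with tumours over 25 mm2 received cyclophosphamide, which alkylates DNA, together with the nucleoside analogue fludarabine, and the sort followed 7 days later. Control mice (Ctrl) carried B16 tumours and were untreated. No day of the sort is listed for them, so LD and Ctrl cannot be taken as matched in time. The 4 groups are M-MDSC LD, M-MDSC Ctrl, PMN-MDSC LD and PMN-MDSC Ctrl, with 3 libraries each. All groups carry a tumour, so the table holds no tumour-free reference, and age and sex are not given in the labels. The labels do not say whether replicates were separate mice or pools, so p-values measure only the spread between these libraries, which may be technical.

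TGF-beta is made as an inactive complex with its own propeptide and is set free by integrins, proteases or thrombospondin 1. The free dimer binds a type II receptor, which phosphorylates a type I receptor, and the type I receptor phosphorylates SMAD proteins that enter the nucleus with SMAD4. Activins, dimers of the inhibin beta subunits, use their own type I and type II receptors but the same SMAD2 and SMAD3. In myeloid cells TGF-beta is best known for restraining inflammatory activation, and it is among the factors by which suppressor cells act on T cells.

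Expression is given as normalized counts, reads per gene divided by 1 size factor per library, with 8906045 to 16242926 reads in genes per library. Of 8 monocyte markers used to check the sort, 6 were higher in M-MDSC than in PMN-MDSC of LD mice, 1 was lower and 1 did not pass the test, and in Ctrl mice 7 were higher and 1 was lower. All 7 neutrophil markers in the table were lower in M-MDSC than in PMN-MDSC under both treatments. Over all genes, 38.8% were higher in M-MDSC under either treatment, and 36.1% in LD mice or 36.8% in Ctrl mice were lower. The monocyte markers summed to 51050 to 57099 normalized counts in M-MDSC LD, against 44538 to 54946 in PMN-MDSC LD, which overlap. In Ctrl mice these sums were 56176 to 61904 in M-MDSC, against 42104 to 45123 in PMN-MDSC. Ly6g was not analysed here. The libraries numbered 1 of both LD groups stood apart in the proliferation gene Mki67. M-MDSC LD had 8133, 2434 and 3201 normalized counts of Mki67, against 955, 775 and 775 in M-MDSC Ctrl, and PMN-MDSC LD had 6242, 1261 and 2025, against 1688, 2097 and 1901 in PMN-MDSC Ctrl. In bulk RNA, fewer cells of a type and less RNA per cell cannot be told apart.

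Promoter sequence is shown for Inhba and Eng, because these members differed most between the populations in Ctrl mice, in opposite directions. Both are the 250 bases before the annotated start on the plus strand, from RefSeq on GRCm38.p6, at chr13:16011601-16011850 for Inhba and chr2:32646345-32646594 for Eng. Capitals mark a TATA box in Inhba and SMAD boxes in Eng.
Inhba: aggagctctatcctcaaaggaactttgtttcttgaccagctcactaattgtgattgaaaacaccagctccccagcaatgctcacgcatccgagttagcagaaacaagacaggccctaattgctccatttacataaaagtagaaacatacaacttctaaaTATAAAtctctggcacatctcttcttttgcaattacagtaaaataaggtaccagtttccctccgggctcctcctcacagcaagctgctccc
Eng: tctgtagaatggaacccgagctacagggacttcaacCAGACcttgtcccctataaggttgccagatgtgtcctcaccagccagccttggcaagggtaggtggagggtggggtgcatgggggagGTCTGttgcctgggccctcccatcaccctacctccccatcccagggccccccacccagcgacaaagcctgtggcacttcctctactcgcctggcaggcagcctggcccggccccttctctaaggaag
The first base of TATAAA lies 91 bases before the annotated start of Inhba, and this motif, read on both strands, was in 12.4% of 32851 promoter windows of this length. The SMAD box, searched as CAGAC or GTCTG, begins 214 and 127 bases before the start of Eng and was in 42.2% of those windows. Of the 6 members with an entry in the RefSeq promoter table, the Inhba, Tgfb1 and Smad3 windows held no SMAD box, the Tgfbr2 window held 1, and Tgfbr1 held 1 in 1 of its windows. The palindrome GTCTAGAC, in 0.167% of windows, the AP-1 site TGANTCA, in 6.75%, and the cyclic AMP response element TGACGTCA, in 1.55%, were in none of these members' windows. The GC-rich SMAD site GGCGCC, in 9.59% of windows, was in 1 Tgfbr1 window. No overlap between motifs was found in the printed windows, where the marked letters do not touch. A match of letters is a description and not a binding site.

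After lymphodepletion 3 of the 10 members passed the test, each in 1 population. Inhba rose and Thbs1 fell in M-MDSC, Acvrl1 rose in PMN-MDSC, and the other 7 members passed the test in neither. In M-MDSC 2 of 10 members passed the test for LD against Ctrl, where 3.01% of the 11122 genes tested did, and in PMN-MDSC 1 of 10 members did, where 15.7% of genes did. For the difference between these LD changes, M-MDSC minus PMN-MDSC, 3 of 10 members passed, Inhba as higher and Acvrl1 and Thbs1 as lower, against 2.25% of all genes (1.18% higher and 1.07% lower). A test here is limma's moderated test on log2(normalized count + 1), with an adjusted p under 0.05 over all genes tested as the threshold. The median log2 change of the 10 members was 0.037 in M-MDSC and -0.0038 in PMN-MDSC, against -0.037 in M-MDSC and -0.050 in PMN-MDSC over all genes tested.

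**Figure D1:**
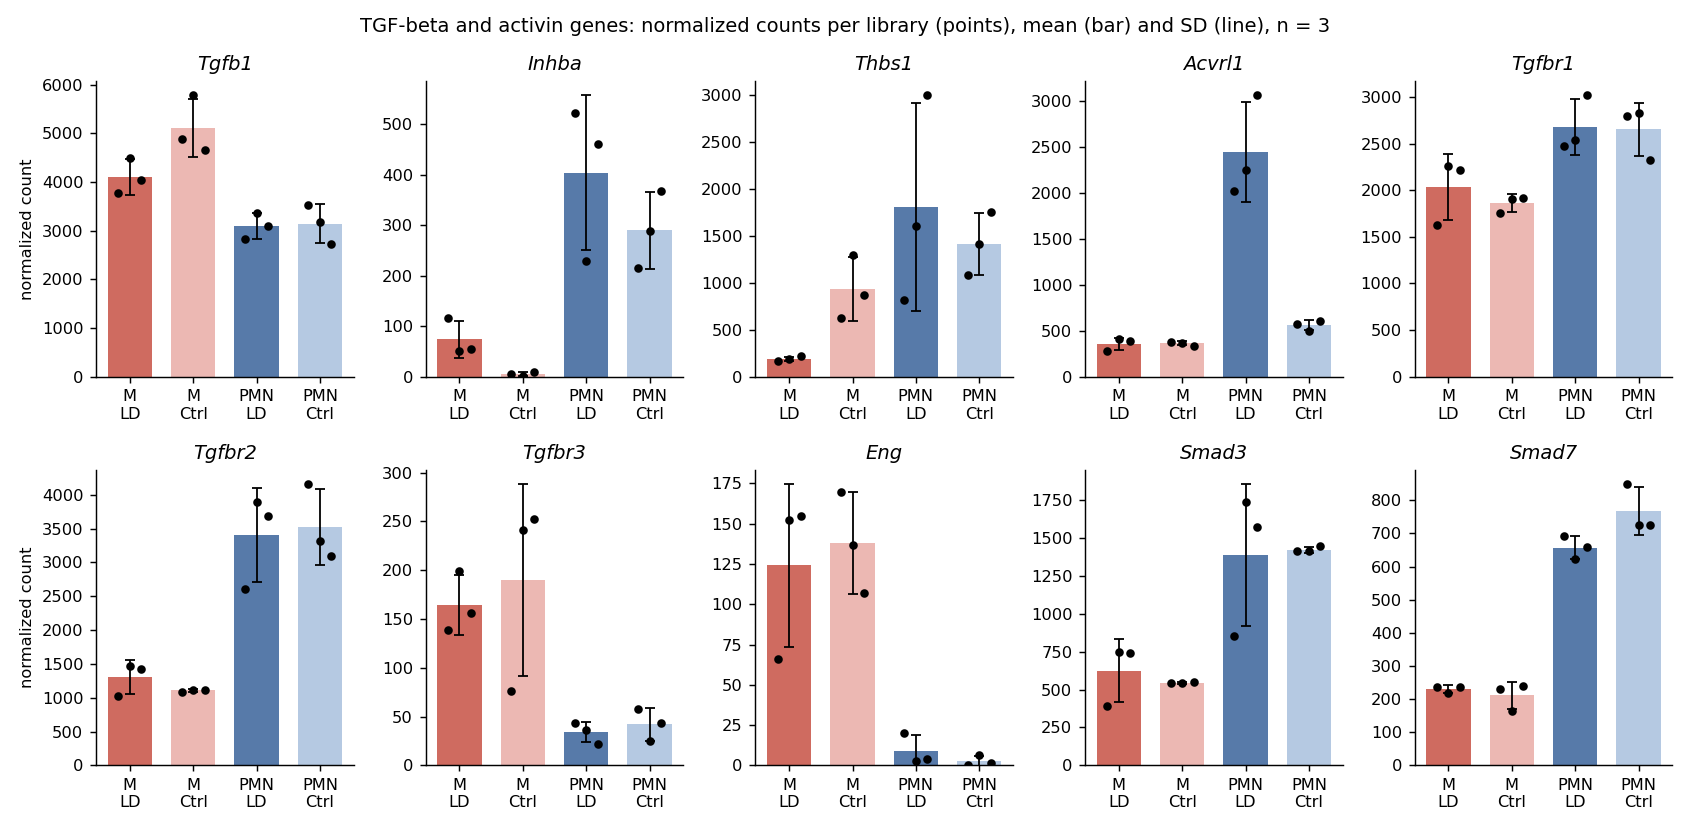
Normalized counts of the 10 genes in each library (points), with the group mean (bar) and SD (line) of 3 libraries per group, on a linear axis that starts at 0 and is scaled per gene. The 3 M-MDSC LD libraries lie above M-MDSC Ctrl for Inhba and below it for Thbs1, and the 3 PMN-MDSC LD libraries lie above 2000 for Acvrl1, against 497 to 607 in PMN-MDSC Ctrl.

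Inhba encodes the beta A subunit, of which activin A is the homodimer. The gene lies on chromosome 13, bases 16011851 to 16031621 of GRCm38, plus strand. Inhba had 115, 51.8 and 54.2 normalized counts in M-MDSC LD, against 4.54, 0.957 and 8.41 in M-MDSC Ctrl. The Ctrl values rest on 7, 1 and 15 reads, and every LD library lies above every Ctrl library. The fitted rise in M-MDSC was 3.90 ± 0.51 (log2, SE), a 14.9-fold change, with a limma adjusted p of 0.000761. Leaving out any 1 library kept the rise between 3.27 and 4.40, and with a pseudocount of 8 in place of 1 it was 2.65. It was the sixth largest rise of the 11122 genes tested. In PMN-MDSC, Inhba had 521, 229 and 460 normalized counts with LD, against 214, 288 and 367 in Ctrl. Those ranges overlap, and the fitted change of 0.42 ± 0.51 (SE) had a limma adjusted p of 0.614. The LD change of Inhba was larger in M-MDSC than in PMN-MDSC by 3.47 ± 0.73 (log2, SE; limma adjusted p = 0.0264). That call was lost without PMN-MDSC LD replicate 2 (adjusted p = 0.0611 in limma), PMN-MDSC Ctrl replicate 2 (0.0634) or PMN-MDSC Ctrl replicate 3 (0.0708). Inhba stayed lower in M-MDSC than in PMN-MDSC under both treatments, so its order from high to low was PMN-MDSC LD, PMN-MDSC Ctrl, M-MDSC LD and M-MDSC Ctrl, and only the PMN-MDSC pair of neighbours overlapped.

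Because Inhba is high in PMN-MDSC, its level in M-MDSC was set beside that of 7 neutrophil markers. The M-MDSC LD mean of Inhba was 18.3% of the PMN-MDSC LD mean, with 12.8% to 28.6% in single libraries, and the M-MDSC Ctrl mean was 1.60% of the PMN-MDSC Ctrl mean. Means of the 7 neutrophil markers in M-MDSC LD were between 0.113% and 5.76% of those in PMN-MDSC LD, and in M-MDSC Ctrl between 0.0708% and 2.85% of those in PMN-MDSC Ctrl. In each M-MDSC LD library the Inhba share was above that of all 7 markers in the same library. S100a8, S100a9 and Retnlg were also called higher in M-MDSC LD than in M-MDSC Ctrl. S100a8, a calcium-binding protein abundant in neutrophils, had 9936, 1477 and 3309 normalized counts in M-MDSC LD, against 338, 478 and 434 in M-MDSC Ctrl. The chemokine receptor gene Cxcr2, a defining neutrophil marker, was at 0.188% of the PMN-MDSC mean in M-MDSC LD and 0.0857% in M-MDSC Ctrl. Summed over the list, the neutrophil markers came to 9530 to 38947 normalized counts in M-MDSC LD libraries, against 5814 to 6577 in M-MDSC Ctrl libraries. A high share was not particular to Inhba among genes outside these markers. Ffar2, picked below for its likeness to Inhba, averaged 82.0 ± 53.5 normalized counts in M-MDSC LD, against 269 ± 98.7 in PMN-MDSC LD. In Ctrl mice Ffar2 averaged 5.56 ± 6.85 in M-MDSC, against 148 ± 30.8 in PMN-MDSC (SD, n = 3). The part of neutrophils or their precursors in the rise of Inhba in M-MDSC was not tested.

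**Figure D2:**
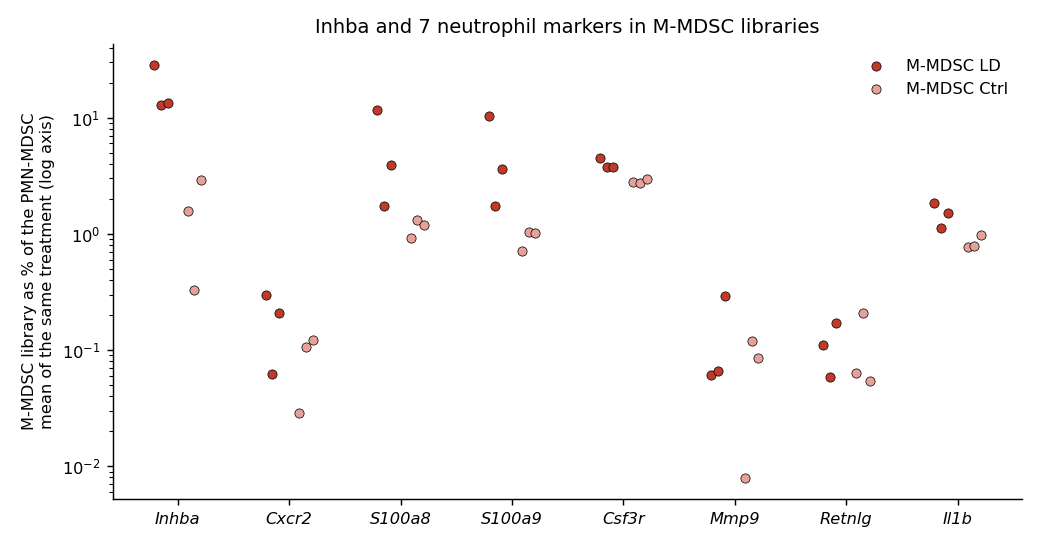
Level of Inhba and of 7 neutrophil marker genes in each M-MDSC library (points), as a percentage of the PMN-MDSC mean under the same treatment, on a logarithmic axis. Inhba in M-MDSC LD lies between 12.8% and 28.6%, and the next highest points are S100a8 at 11.7% and S100a9 at 10.3% in 1 LD library.

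Marker genes of other cell types and of cell division also moved with LD in M-MDSC, where 2.54% of all genes were called higher and 0.468% lower. Of 8 macrophage markers tested, 4 were called higher, and their list summed to 1772 to 1955 normalized counts in M-MDSC LD, against 562 to 651 in M-MDSC Ctrl. Axl alone made up most of these sums, with 1274, 1534 and 1398 in M-MDSC LD, against 375, 445 and 480 in M-MDSC Ctrl. Of 7 progenitor markers, 4 were called higher, with sums of 1888 to 6762 in M-MDSC LD, against 548 to 691 in M-MDSC Ctrl. Of 8 cell division genes, 6 were called higher, with sums of 3725 to 12666 in M-MDSC LD, against 1175 to 1433 in M-MDSC Ctrl. No gene of these 3 lists was at 0 in all libraries of a group of M-MDSC. Of 3 B and plasma cell genes tested, 1 was called lower, with sums over the 8 listed genes of 89.1 to 133 in M-MDSC LD, against 172 to 457 in M-MDSC Ctrl. It was Igj, the immunoglobulin J chain gene, with 1.45, 0 and 1.97 normalized counts in M-MDSC LD, against 78.5, 334 and 140 in M-MDSC Ctrl (limma adjusted p = 0.00181). The B cell genes Cd79a, Ms4a1 and Pax5 and the plasma cell gene Mzb1 were at 0 in all M-MDSC LD libraries. They were already low in M-MDSC Ctrl, with 0 to 9.54 normalized counts per library. Cd79b and Sdc1, also tested, were not called. Cd79b had 32.6, 62.0 and 30.5 in M-MDSC LD, against 38.9, 46.9 and 38.7 in M-MDSC Ctrl. Sdc1 had 55.1, 71.3 and 80.8 in M-MDSC LD, against 39.6, 57.4 and 24.7 in M-MDSC Ctrl. The part of these lists in the changes of Inhba and Thbs1 was not tested.

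Thbs1 encodes thrombospondin 1, a matrix glycoprotein that can release active TGF-beta from its latent complex. It lies on chromosome 2, bases 118111876 to 118127133, plus strand. M-MDSC LD had 167, 184 and 217 normalized counts of Thbs1, against 626, 1299 and 873 in M-MDSC Ctrl. No LD value reaches the lowest Ctrl value, and the 3 LD libraries lie close together while the Ctrl libraries spread. Thbs1 fell by 2.24 on the log2 scale (SE 0.36, limma adjusted p = 0.00302), the sixth largest fall among the genes tested. In PMN-MDSC, Thbs1 had 814, 1603 and 3000 normalized counts with LD, against 1082, 1411 and 1751 in Ctrl. There the LD libraries surround the Ctrl libraries, and the change of 0.18 ± 0.36 (log2, SE) had a limma adjusted p of 0.772.

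The LD changes of Thbs1 differed between the populations by -2.42 ± 0.51 (log2, SE; limma adjusted p = 0.0266). The call was lost in limma fits without PMN-MDSC LD replicate 2, without M-MDSC Ctrl replicate 2 or 3, and without PMN-MDSC Ctrl replicate 1 or 2, with adjusted p between 0.0542 and 0.0754. Thbs1 is abundant in platelets, so platelet genes were summed as well. The 10 platelet and megakaryocyte genes summed to 17.7 to 45.6 normalized counts in M-MDSC LD and 25.8 to 35.0 in M-MDSC Ctrl, and the platelet chemokine gene Pf4 was at 0 in all 6 M-MDSC libraries. In PMN-MDSC they summed to 108 to 178 with LD and to 120 to 158 in Ctrl. The sums overlap between LD and Ctrl in both populations, 3 of the 10 genes reached the minimum level, and their part in the fall of Thbs1 was not tested. From high to low the group means of Thbs1 ran PMN-MDSC LD, PMN-MDSC Ctrl, M-MDSC Ctrl and M-MDSC LD, and only the M-MDSC pair of neighbours did not overlap.

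Tgfb1 encodes TGF-beta 1, the main isoform in leukocytes, and was the most abundant member per kilobase of exon in both populations. It lies on chromosome 7, bases 25687002 to 25705077, plus strand. In M-MDSC it had 3777, 4488 and 4038 normalized counts with LD, against 4892, 5783 and 4657 in Ctrl. All 3 LD values are below all 3 Ctrl values, but the change of -0.31 ± 0.11 (log2, SE; 95% interval -0.56 to -0.07) had a limma adjusted p of 0.193. In PMN-MDSC the values were 2825, 3352 and 3091 with LD, against 3527, 3180 and 2731 in Ctrl, which overlap throughout. By group mean, Tgfb1 was highest in M-MDSC Ctrl, next in M-MDSC LD, and lowest in PMN-MDSC of either treatment, which did not differ beyond their spread.

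Acvrl1 encodes ALK1, a type I receptor best known in endothelium, where it binds BMP9 and BMP10 and can also take part in TGF-beta signalling. It lies on chromosome 15, bases 101128522 to 101145336, plus strand. PMN-MDSC LD had 2026, 2255 and 3065 normalized counts of Acvrl1, against 576, 497 and 607 in PMN-MDSC Ctrl. The lowest LD library lies far above the highest Ctrl library. Acvrl1 rose in PMN-MDSC by 2.11 ± 0.16 (log2, SE), a 4.31-fold change with a limma adjusted p of 2.39e-05. Leaving out any 1 library kept the rise between 1.94 and 2.23. In M-MDSC, Acvrl1 had 282, 406 and 384 normalized counts with LD, against 381, 371 and 338 in Ctrl. These overlap, and the fitted change was -0.04 ± 0.16 (SE), with a 95% interval of -0.39 to 0.31 and a limma adjusted p of 0.98. Acvrl1 differed in its LD change between the populations by -2.15 ± 0.23 (log2, SE; limma adjusted p = 0.000996). Its group means ran from PMN-MDSC LD over PMN-MDSC Ctrl to the M-MDSC groups, and only the M-MDSC neighbours overlapped.

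Since Acvrl1 and Eng are known from endothelium, endothelial genes were examined beside them. Cdh5, which encodes VE-cadherin, averaged 2.59 normalized counts in M-MDSC LD, 2.76 in M-MDSC Ctrl, 2.29 in PMN-MDSC LD and 0.532 in PMN-MDSC Ctrl. The 10 stromal and endothelial genes summed to 269 to 471 normalized counts in PMN-MDSC LD, against 210 to 278 in PMN-MDSC Ctrl, and those ranges overlap. In M-MDSC they summed to 171 to 333 with LD and to 148 to 191 in Ctrl. The 5 genes of this list that were tested had a median log2 change of 0.81 in M-MDSC and -0.45 in PMN-MDSC. Of these 5 genes, 1 was called higher in PMN-MDSC LD and 0 lower, where 7.17% of all genes were called higher and 8.51% lower. It was Lyve1, a hyaluronan receptor gene of lymphatic endothelium and some macrophages, with 67.6, 146 and 264 normalized counts in PMN-MDSC LD, against 7.14, 11.4 and 20.8 in PMN-MDSC Ctrl (limma adjusted p = 0.00905). Of 7 progenitor markers, 2 were called higher in PMN-MDSC LD, with list sums of 349 to 913 normalized counts, against 212 to 298 in PMN-MDSC Ctrl. Of 4 dendritic cell markers, 1 was called higher, with sums of 180 to 266 in PMN-MDSC LD, against 156 to 221 in PMN-MDSC Ctrl. Of 3 B and plasma cell genes tested, 2 were called lower, with sums of 8.83 to 46.0 over the 8 listed genes in PMN-MDSC LD, against 73.4 to 153 in PMN-MDSC Ctrl. Of 7 neutrophil markers, 1 was called higher and 2 lower in PMN-MDSC LD. Their list summed to 531698 to 604953 in PMN-MDSC LD, against 389941 to 424968 in PMN-MDSC Ctrl. Csf3r went the other way, with 98420, 101934 and 95899 in PMN-MDSC LD, against 157386, 153565 and 169452 in PMN-MDSC Ctrl. The part of these markers in the rise of Acvrl1 was not tested.

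Tgfbr1 encodes ALK5, the type I receptor of TGF-beta. In M-MDSC its values were 1631, 2257 and 2213 normalized counts with LD, against 1754, 1910 and 1919 in Ctrl. In PMN-MDSC they were 2475, 2537 and 3019 with LD, against 2797, 2830 and 2326 in Ctrl. Both pairs overlap, with fitted LD changes of 0.11 ± 0.13 in M-MDSC and 0.01 ± 0.13 in PMN-MDSC (log2, SE), and the sign of the PMN-MDSC change turns to -0.02 under TMM scaling (a rescaling of each library by a trimmed mean of gene ratios). Tgfbr2 encodes the type II receptor that binds TGF-beta first. It had 1020, 1472 and 1424 normalized counts in M-MDSC LD, against 1088, 1119 and 1117 in M-MDSC Ctrl. PMN-MDSC LD had 2608, 3899 and 3692, against 4161, 3315 and 3092 in PMN-MDSC Ctrl. The Tgfbr2 ranges overlap too, with 95% intervals of the LD change from -0.13 to 0.57 in M-MDSC and from -0.41 to 0.29 in PMN-MDSC, and neither interval holds a change as large as those called for Inhba, Thbs1 and Acvrl1. Tgfbr1 lies on chromosome 4, bases 47353222 to 47414931, plus strand, and Tgfbr2 on chromosome 9, bases 116084293 to 116175360, minus strand.

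Tgfbr3 encodes betaglycan, a co-receptor that presents TGF-beta 2 to the type II receptor and inhibin to activin receptors. It had 138, 199 and 157 normalized counts in M-MDSC LD, against 76.5, 241 and 252 in M-MDSC Ctrl. PMN-MDSC LD had 43.3, 36.8 and 22.4, against 58.1, 24.6 and 43.1 in PMN-MDSC Ctrl. Within each population the LD and Ctrl values overlap, and the 95% intervals of the LD change were wide, -0.99 to 0.92 in M-MDSC and -1.21 to 0.70 in PMN-MDSC. Eng encodes endoglin, a co-receptor that works with ALK1. Eng had 65.9, 152 and 155 normalized counts in M-MDSC LD, against 170, 137 and 107 in M-MDSC Ctrl. In PMN-MDSC it had 20.3, 2.94 and 4.21 normalized counts with LD (15, 2 and 3 reads), against 0, 6.15 and 1.60 in Ctrl (0, 7 and 1 reads). So Eng was close to the detection limit in PMN-MDSC, it passed the minimum level of 10 through the M-MDSC groups, and its LD change of 1.52 ± 0.73 (log2, SE; limma adjusted p = 0.174) in PMN-MDSC rests on a few reads. Tgfbr3 lies on chromosome 5, bases 107106570 to 107289629, minus strand, and Eng on chromosome 2, bases 32646595 to 32682669, plus strand.

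Smad3 encodes the SMAD that carries TGF-beta and activin signals to DNA. In M-MDSC it had 389, 745 and 743 normalized counts with LD, against 540, 543 and 553 in Ctrl. PMN-MDSC LD had 853, 1739 and 1569, against 1411, 1411 and 1446 in PMN-MDSC Ctrl. In both populations LD library 1 lies below every Ctrl library and the other two LD libraries lie above, so the LD changes of 0.14 ± 0.25 in M-MDSC and -0.10 ± 0.25 in PMN-MDSC (log2, SE; limma adjusted p of 0.935 and 0.82) average values on both sides. Without both LD libraries numbered 1, a choice made after the data were seen, the change was 0.45 in M-MDSC with a limma adjusted p of 0.0115, and 0.22 in PMN-MDSC. Library 1 was the lowest of the 3 LD libraries for 8 of 10 members in M-MDSC and 6 of 10 in PMN-MDSC, and for 39.7% and 40.5% of all genes tested. These were also the LD libraries with the most Mki67, and the part of that in Smad3 was not tested.

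Smad7 encodes an inhibitory SMAD that blocks type I receptors and is itself induced by TGF-beta. In M-MDSC it had 238, 217 and 236 normalized counts with LD, against 230, 166 and 240 in Ctrl. PMN-MDSC LD had 693, 622 and 658, against 850, 725 and 726 in PMN-MDSC Ctrl. The PMN-MDSC groups do not overlap and the M-MDSC groups do, but the PMN-MDSC change of -0.22 ± 0.15 (log2, SE) had a limma adjusted p of 0.328. Counting such cases, LD and Ctrl did not overlap for 3 of 10 members in M-MDSC (Inhba, Tgfb1 and Thbs1), against 23.1% of all genes tested. In PMN-MDSC 2 of 10 members did not overlap (Acvrl1 and Smad7), against 31.9% of genes. Smad3 lies on chromosome 9, bases 63646767 to 63757994, minus strand, and Smad7 on chromosome 18, bases 75367529 to 75395935, plus strand.

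**Figure D3:**
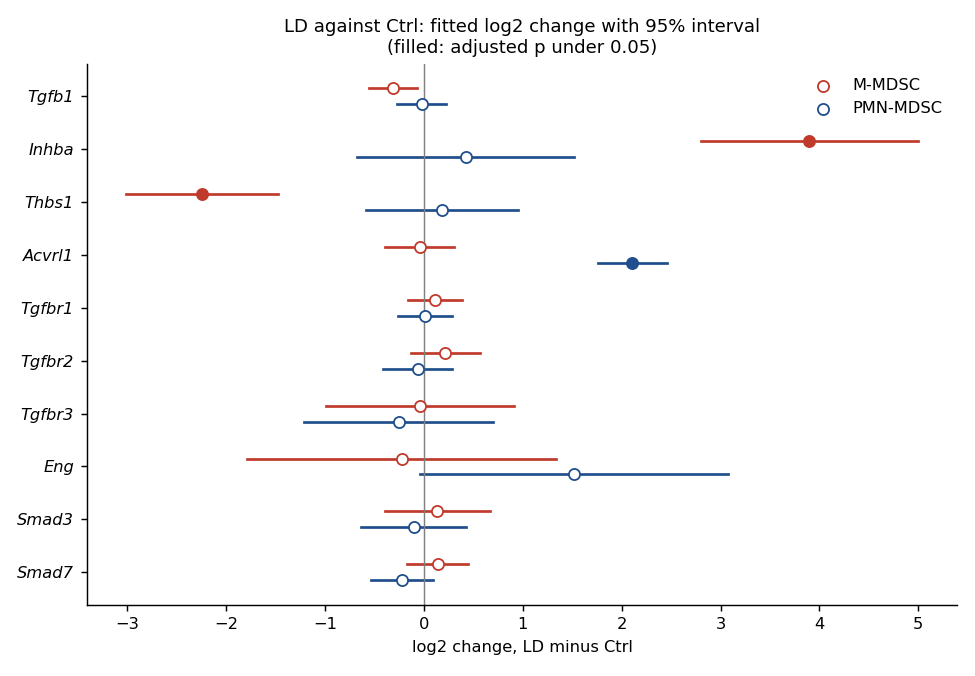
Fitted log2 change (points) of the 10 genes in LD against Ctrl with 95% intervals (lines), in M-MDSC (red, upper of each pair) and PMN-MDSC (blue), from limma on log2(normalized count + 1). Filled points passed an adjusted p of 0.05, which are Inhba at 3.90 and Thbs1 at -2.24 in M-MDSC and Acvrl1 at 2.11 in PMN-MDSC.

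The populations differed from each other in nearly all members, whichever the treatment. In LD mice 3 members were higher and 7 lower in M-MDSC than in PMN-MDSC, and in Ctrl mice 3 were higher, 6 lower and Thbs1 did not pass the test. Most of the table does the same, since 74.8% of all genes passed in LD mice (38.8% higher and 36.1% lower) and 75.6% in Ctrl mice (38.8% higher and 36.8% lower). The groups did not overlap for 10 of 10 members in LD mice, against 75.2% of genes, and for 9 of 10 in Ctrl mice, against 81% of genes. Members higher in M-MDSC were Tgfb1, Tgfbr3 and Eng. Tgfb1 was higher by 0.41 ± 0.11 in LD mice and 0.70 ± 0.11 in Ctrl mice (log2, SE). Tgfbr3 was higher by 2.27 ± 0.45 in LD mice and 2.05 ± 0.45 in Ctrl mice. For Eng the differences were 3.94 ± 0.73 in LD mice and 5.69 ± 0.73 in Ctrl mice, and the PMN-MDSC Ctrl libraries held 8 reads of it in all.

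Members lower in M-MDSC than in PMN-MDSC were the signalling receptors, both SMADs, Acvrl1 and Inhba. Tgfbr2 was lower by a log2 difference of -1.38 ± 0.16 in LD mice and -1.66 ± 0.16 in Ctrl mice (SE). The difference of Tgfbr1 was smaller, -0.41 ± 0.13 in LD mice and -0.51 ± 0.13 in Ctrl mice, and in LD mice its call was lost without M-MDSC LD replicate 1 (limma adjusted p = 0.0549) or PMN-MDSC LD replicate 3 (0.0515). Smad3 differed by -1.14 ± 0.25 in LD mice and -1.38 ± 0.25 in Ctrl mice, and Smad7 by -1.51 ± 0.15 and -1.87 ± 0.15 in the same mice. For these receptor and SMAD genes the sign was the same under both treatments and the LD changes did not pass a test of their difference. Acvrl1 differed by -2.77 ± 0.16 in LD mice and -0.62 ± 0.16 in Ctrl mice. For Inhba the differences were -2.45 ± 0.51 in LD mice and -5.93 ± 0.51 in Ctrl mice. The gap between the populations was thus wider in LD mice for Acvrl1 and narrower for Inhba, both beyond the test of the difference. Thbs1 was lower in M-MDSC by a difference of -3.06 ± 0.36 in LD mice (limma adjusted p = 2.18e-06), while the difference of -0.64 ± 0.36 in Ctrl mice had a limma adjusted p of 0.12. That difference in Ctrl mice passed in limma fits without PMN-MDSC LD replicate 1 (0.0381) or 3 (0.0486), M-MDSC Ctrl replicate 2 (0.0495) or both LD libraries numbered 1 (0.0373), and in a fit of only the groups compared (0.0274). It also passed with a replicate block by number (0.0334) or by presumed animal (0.0206).

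**Figure D4:**
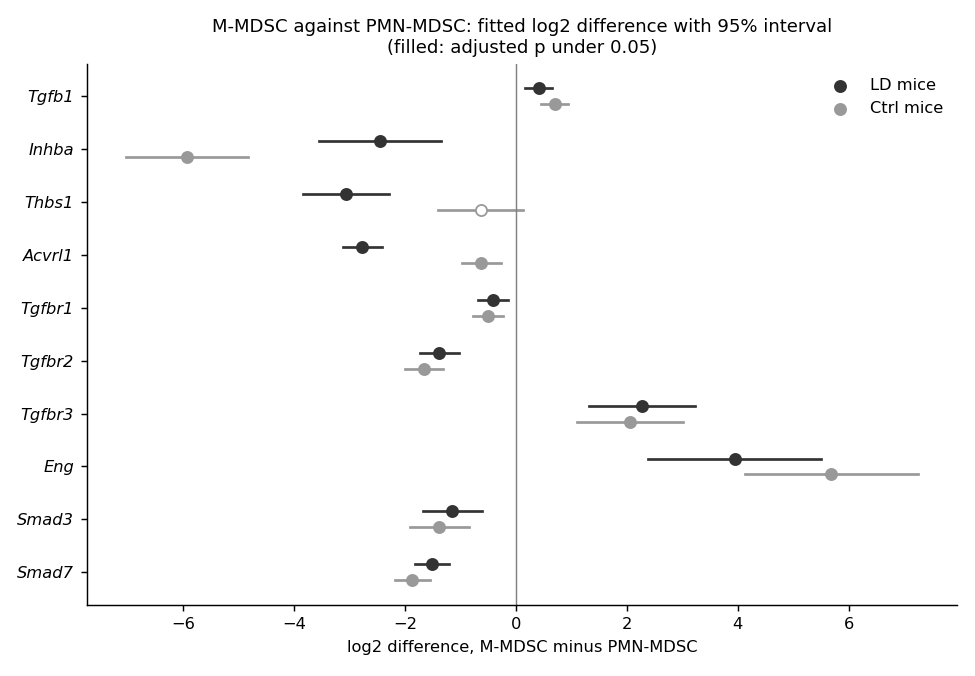
Fitted log2 difference (points) of the 10 genes in M-MDSC minus PMN-MDSC with 95% intervals (lines), in LD mice (dark, upper of each pair) and Ctrl mice (grey). Filled points passed an adjusted p of 0.05, the open point is Thbs1 in Ctrl mice, and the pairs of Inhba, Thbs1 and Acvrl1 lie farther apart than those of the other genes.

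Per kilobase of exon, the scale on which genes can be set beside each other, Tgfb1 led in M-MDSC with 813 ± 71.4 normalized counts per kilobase in LD and 1014 ± 118 in Ctrl (SD, n = 3). Tgfbr1 followed with 311 ± 53.4 in LD and 285 ± 14.2 in Ctrl. Next in M-MDSC LD was Tgfbr2 with 159 ± 30.3, where Thbs1 had 31.2 ± 4.19. Next in M-MDSC Ctrl was Thbs1 with 154 ± 56.1, above Tgfbr2 with 135 ± 2.13. In PMN-MDSC LD, Acvrl1 reached 574 ± 128 per kilobase, beside 410 ± 45.6 for Tgfbr1 and 415 ± 84.7 for Tgfbr2, and in PMN-MDSC Ctrl it had 131 ± 13.2, beside 406 ± 43.2 and 430 ± 68.9 for those receptors. So the mean of Acvrl1 was above those of the TGF-beta receptors in PMN-MDSC LD and below them in PMN-MDSC Ctrl. Its partner Eng had 2.26 ± 2.39 per kilobase in PMN-MDSC LD and 0.638 ± 0.789 in PMN-MDSC Ctrl, the lowest member there.

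The other genes of the pathway were taken from 8 lists with 146 genes in the table, of which 69 had a mean of at least 10. With LD, 4 of the 69 were called higher and none lower in M-MDSC (limma), where 2.54% of all genes were called higher and 0.468% lower. An unadjusted limma p under 0.05 was found for 18 of the 69. The share of all genes under that unadjusted p was not counted, so nothing about the pathway is read from this number. With edgeR 6 of the 69 were called higher and 0 lower, and of all genes 388 higher and 52 lower. With DESeq2 8 of the 69 were called higher and 2 lower, and of all genes 549 higher and 174 lower. In PMN-MDSC 7 were called higher and 7 lower, where 7.17% of all genes were called higher and 8.51% lower. The median log2 change of the 69 was 0.034 in M-MDSC and -0.056 in PMN-MDSC, close to the medians over all genes given above.

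Ligands were scarce. Of 31 other ligand genes only Amh, the anti-Mullerian hormone gene, reached the minimum level, and 7 were at 0 in all libraries. Among 7 receptors tested, Bmpr1a was called higher in M-MDSC LD and Acvr1b in PMN-MDSC LD, where 2.54% and 7.17% of all genes were called higher. Bmpr1a, a type I receptor for bone morphogenetic proteins, averaged 10.4 ± 2.28 normalized counts in M-MDSC LD and 2.93 ± 2.10 in M-MDSC Ctrl (SD, n = 3). It passed the minimum level of 10 through the PMN-MDSC groups, with means of 975 in LD and 532 in Ctrl. The M-MDSC call (limma adjusted p = 0.0348) rests on 38 reads in M-MDSC LD and 12 in M-MDSC Ctrl, and it was made in 3 of 12 fits that each left out 1 library. Acvr1b encodes ALK4, the type I receptor of activin, and averaged 785 ± 29.7 in PMN-MDSC LD and 549 ± 40.1 in PMN-MDSC Ctrl. Its LD change of 0.52 ± 0.11 (log2, SE) in PMN-MDSC and -0.33 ± 0.11 in M-MDSC differed by -0.85 ± 0.15 (limma adjusted p = 0.0113). The activin type II receptor gene Acvr2a followed the same directions without passing, with 0.67 in PMN-MDSC, -0.70 in M-MDSC and a limma adjusted p of 0.0566 for the difference.

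Of 6 other co-receptors and decoys, none passed for LD in M-MDSC, and in PMN-MDSC 1 rose and 1 fell. In PMN-MDSC 7.17% of all genes were called higher and 8.51% lower. Nrp1, which encodes neuropilin 1, a co-receptor that binds latent and active TGF-beta 1, averaged 420 ± 81.1 normalized counts in PMN-MDSC LD and 161 ± 31.6 in PMN-MDSC Ctrl, a rise of 1.38 ± 0.17 (log2, SE). Its paralog Nrp2 averaged 34.3 ± 12.8 in PMN-MDSC LD and 94.5 ± 23.9 in PMN-MDSC Ctrl and fell by 1.48 on the log2 scale, a call lost without PMN-MDSC Ctrl replicate 2 (limma adjusted p = 0.0529). Both genes were higher in M-MDSC than in PMN-MDSC. Of 5 other SMADs and 23 SMAD regulators, none passed for LD in M-MDSC, and none of the SMADs passed in PMN-MDSC. Among the regulators in PMN-MDSC, Ppm1a, a phosphatase for SMAD2 and SMAD3, rose by 0.33 ± 0.10, a call made in 8 of 12 fits that each left out 1 library, and Tgif1, a corepressor of SMADs, fell by 1.48 on the log2 scale.

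In the list of 12 latency and activation genes, none passed for LD in M-MDSC and 3 passed in PMN-MDSC. Of all genes, 3.01% passed in M-MDSC and 15.7% in PMN-MDSC. Plau, the urokinase gene, averaged 461 ± 120 normalized counts in PMN-MDSC LD and 131 ± 30.2 in PMN-MDSC Ctrl, and rose by 1.81 ± 0.23 (log2, SE). Emilin1, a matrix protein that hinders processing of the TGF-beta precursor, averaged 257 ± 77.5 in PMN-MDSC LD and 107 ± 11.6 in PMN-MDSC Ctrl, and rose by 1.23 ± 0.18. Lrrc33, now named Nrros, whose product holds latent TGF-beta 1 on myeloid cells, averaged 3087 ± 199 in PMN-MDSC LD and 4703 ± 155 in PMN-MDSC Ctrl, and fell by 0.61 on the log2 scale. The LD change of Emilin1 differed between the populations by -1.33 ± 0.25 (log2, SE; limma adjusted p = 0.015, and 0.0507 without M-MDSC Ctrl replicate 1), and that of Nrp1 by -1.26 ± 0.23 (0.0132). For Lrrc33 the difference was 0.50 ± 0.11 (log2, SE; limma adjusted p = 0.0342), and this call was made in 2 of 12 fits that each left out 1 library, with adjusted p up to 0.0818. Neither of the 2 extracellular antagonists tested passed in either population.

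Of 13 genes known as transcriptional targets of the pathway in other cells, 3 rose and none fell with LD in M-MDSC. In PMN-MDSC 2 rose and 4 fell. Over all genes, 2.54% were called higher and 0.468% lower in M-MDSC, and 7.17% higher and 8.51% lower in PMN-MDSC. The 3 that rose in M-MDSC were Id1, Id2 and Bhlhe40, all of which encode helix-loop-helix regulators of transcription. Id1 averaged 102 ± 32.3 normalized counts in M-MDSC LD and 47.8 ± 12.4 in M-MDSC Ctrl, Id2 averaged 480 ± 36.5 and 257 ± 63.5 in these groups, and Bhlhe40 averaged 822 ± 81.3 and 448 ± 68.2. Of 12 fits that each left out 1 library, Bhlhe40 passed in 12, Id2 in 11 and Id1 in 4. Over the 69 genes such fits called 1 to 6 in M-MDSC, with 1 called without M-MDSC Ctrl replicate 1, and a fit with no minimum level called 2. Among these 3 genes the LD change passed the test of a difference between the populations for Bhlhe40, by 0.99 ± 0.21 (log2, SE; limma adjusted p = 0.028), and that call was made in 4 of the 12 fits, with adjusted p up to 0.0648. Id2 also rose in PMN-MDSC, as did the cell cycle inhibitor gene Cdkn1a, which was low there with 35.2 ± 12.3 normalized counts in LD and 14.5 ± 2.65 in Ctrl. The genes that fell there were Junb and Atf3, which encode transcription factors, Klf10, an early TGF-beta response gene, and Fn1, the fibronectin gene. Their falls were between 0.61 and 0.79 on the log2 scale. In PMN-MDSC, Cdkn1a and Fn1 passed in 6 of the 12 fits each and Id2 in 7. Tgfbi, a gene named for its induction by TGF-beta, did not pass, with changes of -0.37 ± 0.10 in M-MDSC and -0.29 ± 0.10 in PMN-MDSC (limma adjusted p of 0.0788 and 0.078).

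**Figure D5:**
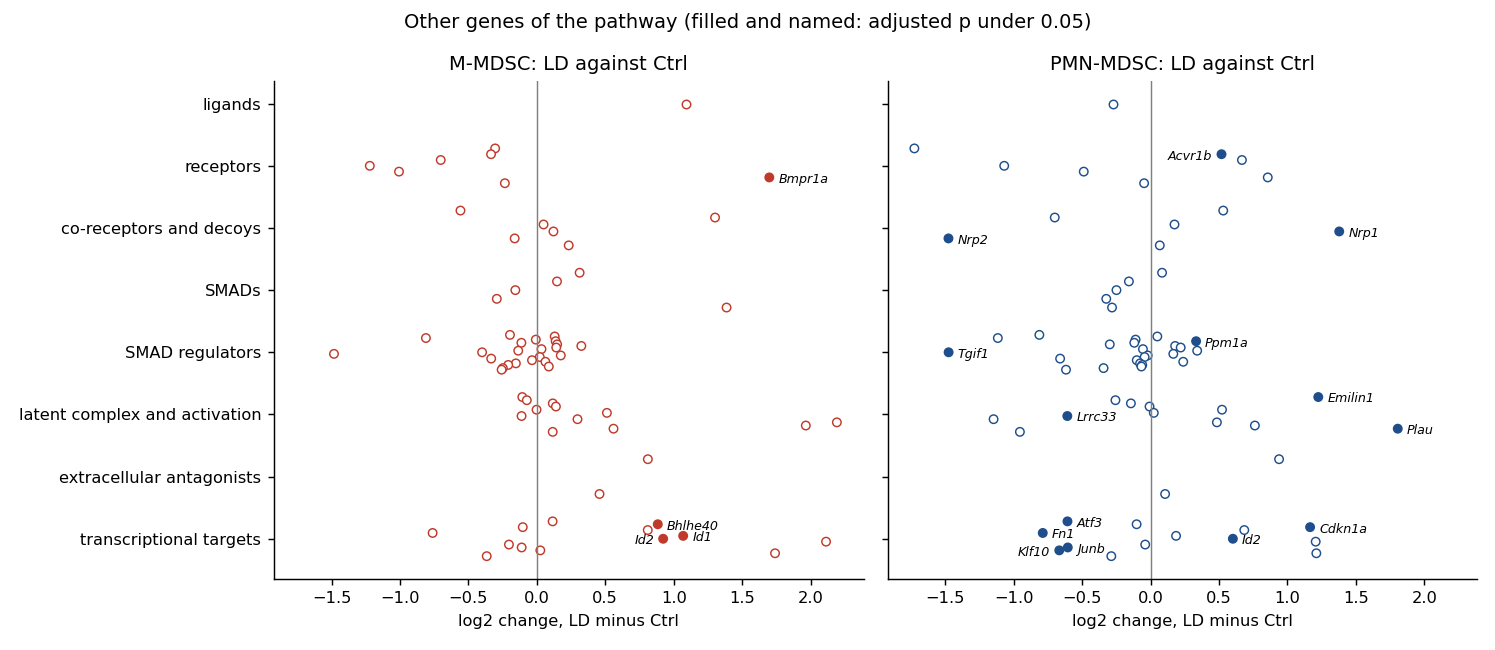
Log2 change, LD minus Ctrl, of the 69 other pathway genes by list (rows, points spread vertically within a row for legibility), in M-MDSC (left) and PMN-MDSC (right). Filled and named points passed an adjusted p of 0.05, which are 4 genes in M-MDSC, all higher, and 14 in PMN-MDSC, 7 on each side.

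Between the populations 56 of the 69 other pathway genes passed under each treatment, 26 higher and 30 lower in M-MDSC, where 74.8% of all genes passed in LD mice and 75.6% in Ctrl mice. Of 23 SMAD regulators tested, 5 were higher and 15 lower in M-MDSC under either treatment, where 38.8% of all genes were higher and 36.1% (LD mice) or 36.8% (Ctrl mice) lower. An example is Tob1, a gene whose product binds SMADs, with 122 ± 17.7 normalized counts in M-MDSC LD against 1587 ± 176 in PMN-MDSC LD, and 107 ± 6.04 in M-MDSC Ctrl against 1605 ± 32.5 in PMN-MDSC Ctrl. Of 5 SMADs, Smad2 and Smad4 were lower in M-MDSC, and Smad1, Smad5 and Smad6, which belong to the bone morphogenetic protein branch, were higher. In LD mice Smad5 averaged 332 ± 43.4 in M-MDSC and 89.4 ± 12.9 in PMN-MDSC, and Smad2 averaged 872 ± 123 in M-MDSC and 1356 ± 223 in PMN-MDSC.

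Genes whose pattern over the 12 libraries was closest to each of the 3 members that changed were ranked by the root mean square difference of log2 values centred per gene. For Acvrl1 these were Rab3d (0.36), Ifrd1 (0.38) and S100a6 (0.39), where Acvrl1 itself had an SD of 1.14 over the 12 libraries. Rab3d averaged 4307 ± 1064 normalized counts in PMN-MDSC LD against 1693 ± 183 in PMN-MDSC Ctrl, and 789 ± 67.5 in M-MDSC LD against 695 ± 28.5 in M-MDSC Ctrl. That Rab3d was high in PMN-MDSC LD, where Acvrl1 was high, follows from how it was chosen and is no separate result. For Inhba they were Sept5 (0.62), Ffar2 (0.63) and Mgst2 (0.63), with an SD of 2.59 for Inhba. Ffar2, a receptor gene for short-chain fatty acids, averaged 82.0 ± 53.5 in M-MDSC LD against 5.56 ± 6.85 in M-MDSC Ctrl, and 269 ± 98.7 in PMN-MDSC LD against 148 ± 30.8 in PMN-MDSC Ctrl. For Thbs1 they were Mtus2 (0.65), Ttc30a1 (0.65) and Cfp (0.67), with an SD of 1.31 for Thbs1. Cfp, the properdin gene, averaged 392 ± 6.06 in M-MDSC LD against 638 ± 127 in M-MDSC Ctrl, and 1726 ± 355 in PMN-MDSC LD against 1700 ± 237 in PMN-MDSC Ctrl.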

How the data were processed

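Total RNA libraries were made from 100 ng of RNA with ribosomal RNA depletion, after a sort to over 99% purity, per the labels' protocols. The authors deposited 1 table of normalized counts, here called a signal, for 23479 genes in 12 libraries. Each value is a whole multiple of 1 read's worth in its library within 0.001 reads, so reads were recovered. The submitters' processing notes name the mm10 build and 3 tools, STAR 2.5.3a, HTSeq 0.6.1 and DESeq2, but give none a role. Strandedness is not given in the sources used here. Reads overlapping Acvrl1, Eng, Tgfbr3 or Thbs1 and another annotated gene (1.51% to 4.54% of their exon bases) cannot be assigned between them.

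limma 3.58.1 (R 4.3.3) was fitted to log2(normalized count + 1) over all 12 libraries with 4 group means, empirical Bayes with a trend, and a mean of at least 10 as a minimum level (11122 genes, all 10 members). Adjusted p-values are Benjamini-Hochberg values of two-sided tests over all genes tested. Fold changes are on the log2(value + 1) scale, which understates low genes. Members, gene lists, tests and the named-gene rule were chosen with earlier results of these data known. The rule named all members, up to 4 genes a list with the smallest adjusted p past the threshold or 2 as values, fixed markers, and the 3 genes most like Acvrl1, Inhba and Thbs1. Acvr2a, Tgfbi and other pathway genes named beyond it were chosen after their values were seen.

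The alternatives changed the pseudocount (0.5 or 8) or the minimum level (none or 50), and also covered TMM scaling, edgeR 4.0.16 and DESeq2 1.42.0 on the recovered reads, blocks by replicate number or presumed animal, a fit of only the groups compared, and each library left out. Gene positions and exon lengths are from GENCODE M21. The scripts were tested on simulated data. Reads carry no molecular identifiers, so the read numbers given need not equal numbers of molecules and do not give the counting error in full.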

Additional observations from a re-analysis of the deposited data

Results flagged for a closer look

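For 3 members the LD change differed between the populations by a test of the difference itself, limma's interaction of treatment and population, with 2.25% of all genes passing. Acvrl1 differed by -2.15 (log2, M-MDSC minus PMN-MDSC; limma adjusted p = 0.000996), with a rise in PMN-MDSC shown by all 3 LD libraries and overlapping values in M-MDSC. Inhba differed by 3.47 (limma adjusted p = 0.0264), with all 3 LD libraries above Ctrl in M-MDSC and overlapping values in PMN-MDSC. Thbs1 differed by -2.42 (limma adjusted p = 0.0266), with all 3 LD libraries below Ctrl in M-MDSC and overlapping values in PMN-MDSC. Of 12 limma fits that each left out 1 library, 12 kept the call for Acvrl1, 9 for Inhba and 7 for Thbs1. Some markers of neutrophils, macrophages, progenitors and dividing cells rose and the B lineage gene Igj fell with LD in M-MDSC. In PMN-MDSC some progenitor genes, Lyve1 and 1 of 7 neutrophil markers rose with LD. Of the neutrophil markers 2 fell there, as did 2 of 3 B and plasma cell genes tested. Over all genes, 7.17% were called higher and 8.51% lower in PMN-MDSC. The part of these markers in the differences was not tested.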

How the results depend on the processing

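Inhba and Thbs1 in M-MDSC and Acvrl1 in PMN-MDSC passed for LD under every alternative run. Leaving out 1 library at a time gave 192 to 548 genes past the threshold for LD in M-MDSC (335 with all), 889 to 2163 in PMN-MDSC (1745) and 115 to 824 for the difference (250), with 1 to 3 members passing for the difference, and 1 to 6 and 2 to 10 other pathway genes for LD in M-MDSC (4) and the difference (5). The lowest were without M-MDSC Ctrl replicate 1, PMN-MDSC Ctrl replicate 3 and PMN-MDSC Ctrl replicate 2, and the highest for M-MDSC and the difference without PMN-MDSC LD replicate 1. For LD in M-MDSC, DESeq2 called 723 genes and 10 other pathway genes, a fit of only the groups compared 532 and 7, and no minimum level 2 other pathway genes. For the difference, no minimum level gave 125 genes, DESeq2 692 and 9 other pathway genes, and the fit without both LD libraries numbered 1 (chosen after seeing the data) 767 and 14. That fit also reversed uncalled LD changes (log2), to 0.12 for Acvrl1, 0.18 for Eng and 0.077 for Tgfbr3 in M-MDSC, and to 0.041 for Tgfb1, 0.12 for Tgfbr2 and 0.22 for Smad3 in PMN-MDSC. Tgfbr1 in PMN-MDSC turned to -0.019 with TMM scaling and -0.022 with edgeR. With 1 library left out, uncalled LD changes that turned sign ran from -0.14 to 0.12 for Acvrl1, -0.43 to 0.18 for Eng, -0.60 to 0.26 for Tgfbr3, -0.020 to 0.45 for Smad3 and -0.030 to 0.24 for Smad7 in M-MDSC. In PMN-MDSC they ran from -0.12 to 0.065 for Tgfb1, -0.077 to 0.068 for Tgfbr1, -0.17 to 0.12 for Tgfbr2, -0.59 to 0.016 for Tgfbr3, -0.30 to 0.22 for Smad3 and -0.28 to 0.66 for Thbs1, and for the difference from -0.34 to 0.55 for Tgfbr3 and -0.079 to 0.55 for Smad3. The cause was not tested. Replicate numbers paired no samples by the labels, and deviations of same-numbered libraries correlated at 0.0675 to 0.208 between M-MDSC LD and PMN-MDSC LD (each best with its own number) and at no more than 0.135 between other groups. With a replicate block by number 373, 1657 and 213 genes passed for LD in M-MDSC, LD in PMN-MDSC and the difference, and with a replicate block by presumed animal 536 for the difference. Under both blocks Thbs1 in M-MDSC against PMN-MDSC of Ctrl mice passed (limma adjusted p = 0.0334 and 0.0206), and no other call of a member changed. Depth limits Eng in PMN-MDSC and Inhba in M-MDSC Ctrl, with 0 to 15 reads per library.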
